A study of Mus musculus with 10 samples.

Results

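The Hand and Twist factors and the E proteins they pair with were taken as 7 genes, Hand1, Hand2, Twist1, Twist2, Tcf3, Tcf4 and Tcf12, of 33641 gene symbols in the files. They were chosen by name. Together they hold 104 of the 105129 transcripts listed, of which 62 belong to Tcf4, 21 to Tcf12, 14 to Tcf3, 3 to Hand1, 2 to Twist2 and 1 each to Hand2 and Twist1. Bulk RNA-seq was made from mandibular prominences (MNPs), which are the arch tissue from which the lower jaw grows, of mouse embryos on a CD1 background at embryonic day 10.5. The groups were wild-type embryos (WT, libraries 3 and 4), embryos with Hand2 f/f alleles and Wnt1-Cre+ (Hand2 cKO, libraries 1, 2 and 3), and embryos with Gli2 f/f and Gli3 f/f alleles and Wnt1-Cre+ (Gli2/3 cKO, library 3). Of 10 labelled samples, 6 were used and 4 were not analysed here. Wnt1-Cre acts in the neural crest lineage that gives most of the arch mesenchyme, so epithelium, mesodermal core, vessels and blood keep the floxed genes. The WT label names no floxed allele and no Cre, so the presence of Cre cannot be told apart from the deletions. The study's methods speak of biologic samples for RNA-seq, but the sources used here do not say how many embryos went into a library. The labels do not tie a library to an embryo, so p-values measure only the spread between these libraries, part of which may be technical.

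Basic helix-loop-helix (bHLH) factors bind DNA as dimers, at short sites called E-boxes with the letters CANNTG. Hand1, Hand2, Twist1 and Twist2 are the tissue-restricted class, and each usually pairs with a broadly made E protein, the product of Tcf3 (E12 and E47), Tcf4 (also named E2-2) or Tcf12 (HEB). Hand and Twist proteins also form dimers with each other and with themselves, so the balance of partners in a cell is thought to set which dimers form. Id proteins lack the basic region and hold E proteins off DNA. In the arch, Hand2 marks the distal mesenchyme downstream of endothelin signalling, Hand1 lies in a smaller ventral domain, and Twist1 is found throughout the cranial mesenchyme. The Tcf genes here are E proteins and not the Tcf/Lef partners of beta-catenin.

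The coding stretches of the bHLH domain are shown because these bases tell the 4 Hand and Twist genes apart in reads and spell the part of the protein that binds DNA and the partner. They were read from GENCODE M21 transcripts (mm10), 5′ to 3′ on the coding strand, and each lies in exon 1 of 2. Hand1 lies at chr11:57831328-57831495 (minus strand), Hand2 at chr8:57322213-57322380 (plus), Twist1 at chr12:33958323-33958487 (plus) and Twist2 at chr1:91801834-91801998 (plus). Capitals mark the 29 of 56 codons, counted on Hand2, that give the same residue in all 4 proteins.
Hand1: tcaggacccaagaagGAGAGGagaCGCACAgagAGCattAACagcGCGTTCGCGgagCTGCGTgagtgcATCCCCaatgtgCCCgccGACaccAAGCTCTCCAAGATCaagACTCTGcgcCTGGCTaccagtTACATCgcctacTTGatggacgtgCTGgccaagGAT
Hand2: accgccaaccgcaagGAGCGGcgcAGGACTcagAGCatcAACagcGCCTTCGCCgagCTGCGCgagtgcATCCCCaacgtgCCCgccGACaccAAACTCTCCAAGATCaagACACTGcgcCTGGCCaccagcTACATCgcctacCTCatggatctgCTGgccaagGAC
Twist1: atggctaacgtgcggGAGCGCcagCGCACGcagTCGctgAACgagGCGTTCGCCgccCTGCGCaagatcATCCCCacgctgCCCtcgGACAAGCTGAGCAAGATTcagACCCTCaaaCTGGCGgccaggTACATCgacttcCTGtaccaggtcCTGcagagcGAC
Twist2: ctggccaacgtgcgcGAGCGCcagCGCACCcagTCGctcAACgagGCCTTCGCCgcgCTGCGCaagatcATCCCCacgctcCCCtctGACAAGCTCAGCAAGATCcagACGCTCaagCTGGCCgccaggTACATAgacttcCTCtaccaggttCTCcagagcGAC
Hand1 and Hand2 had the same residue at 50 of 56 codons and the same base at 82.1% of positions. Twist1 and Twist2 shared 54 of 55 residues and 89.1% of bases. Between a Hand and a Twist gene 30 to 32 of 55 residues were the same. The longest run of identical bases shared by the whole Hand1-201 and Hand2-201 transcripts was 17, and that shared by Twist1-201 and Twist2-201 was 23.

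Facts on the libraries that touch the values below are as follows. The 6 libraries held 21420197 to 53326697 estimated counts. The first-arch label was checked with 14 mesenchyme markers (Twist1 included), whose summed level was 2125 to 2747 CPM (counts scaled to a common library size with TMM factors) in every library, against 1.98 to 7.40 CPM for 6 Hox genes of more posterior arches. Hand2 cKO 2 stood apart: its counts fell with transcript length, by 0.38 on the log2 scale per doubling of length, where the other 5 libraries had slopes between 0.0035 and 0.15. Differences of Tcf4 and Tcf12 are therefore also given without that library. The summed level of 8 erythroid markers also set libraries apart, with 6994 CPM for WT 4 and 7497 CPM for Hand2 cKO 2 against 2414 to 3550 CPM for the other 4, and its part in the results was not tested. As the tissue is a mixture, fewer cells of a type and less RNA per cell cannot be told apart.

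The deleted gene was examined first. Hand2, the distal arch regulator, had 175 CPM in WT 3 and 209 CPM in WT 4. The Hand2 cKO libraries had 13.4, 25.5 and 15.6 CPM in the order 1, 2 and 3, and the Gli2/3 cKO library had 144 CPM. All 3 Hand2 cKO libraries lay below both WT libraries, at 6.99 to 13.3% of the WT mean, and the highest of them was the library with the length trend. The files count whole transcripts, so these values do not show whether the remaining reads come from the deleted part of the gene.

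Hand1, the close relative that lies in the ventral part of the Hand2 domain, was the other low gene. It had 64.0 CPM in WT 3 and 115 CPM in WT 4. The Hand2 cKO libraries had 6.28, 4.07 and 5.22 CPM, and Gli2/3 cKO 3 had 35.3 CPM. All mutant libraries lay below both WT libraries, and the Gli2/3 cKO library lay between WT and Hand2 cKO. The lowest level, in Hand2 cKO 2, stood for 154 rounded counts, far above a floor of 3 counts.

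The question of the first comparison is how these genes differ once Hand2 is deleted in the crest. In Hand2 cKO against WT, Hand1 differed by -4.11 ± 0.32 (SE, log2 CPM, 95% interval -4.87 to -3.34), a 17.2-fold lower level, and Hand2 by -3.40 ± 0.30 (interval -4.14 to -2.66), a 10.6-fold lower level. Neither passed the threshold of edgeR's quasi-likelihood test, with a Benjamini-Hochberg adjusted p of 0.0580 for both. DESeq2 called both lower, with adjusted p = 2.26e-30 for Hand1 and 4.85e-22 for Hand2. Called genes needed an adjusted p below 0.05 and a fold above 1.5. By edgeR 0 of the 7 genes were called against 0.0114% of all 17477 genes tested, and by DESeq2 2 of 7 against 1.04%. At an unadjusted p below 0.05 by edgeR, 2 of 7 were lower and 0 higher, where 6.47% of all genes met it in either direction. Both counts of 2 include Hand2, whose low level follows from its own deletion, so only Hand1 in them tells of more than the genotype. Without Hand2 cKO 2 edgeR called both genes lower (adjusted p = 0.0372 for Hand1 and 0.00300 for Hand2), and leaving out each WT or Hand2 cKO library in turn gave adjusted p from 0.0203 to 0.155 for Hand1 and from 0.00300 to 0.387 for Hand2. The median log2 difference of the 7 genes was 0.06, and that of all genes tested was -0.00012.

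**Figure D1:**
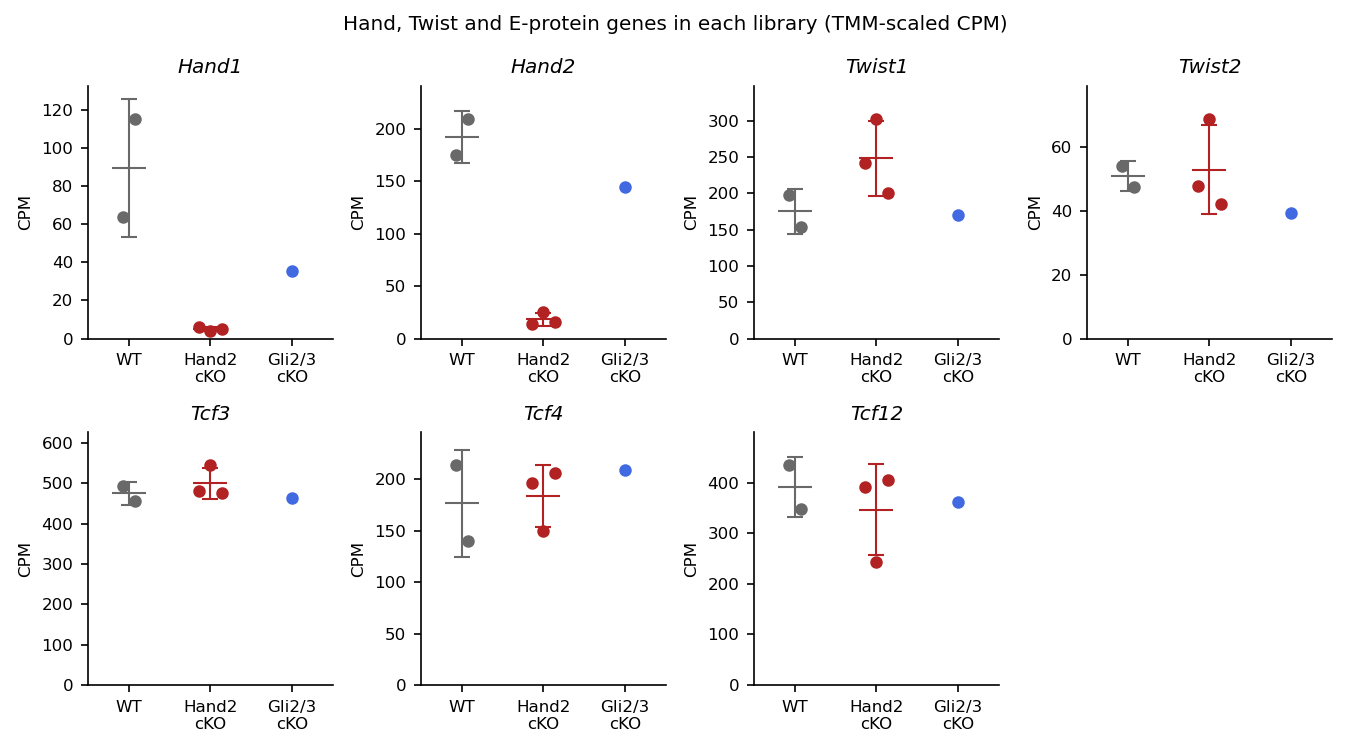
CPM (TMM-scaled, linear axes from 0) of each of the 7 genes in the 2 WT, 3 Hand2 cKO and 1 Gli2/3 cKO libraries. Points are libraries, and bars are the mean ± SD where a group has more than 1 library. Hand1 and Hand2 sit near the bottom of the axis in all Hand2 cKO libraries, while the other 5 genes have Hand2 cKO means of 88.6 to 142% of the WT mean.

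Twist1, which keeps cranial mesenchyme in its state and is bound by both Hand and E proteins, had 197 and 153 CPM in WT 3 and 4. It had 241, 302 and 200 CPM in Hand2 cKO 1, 2 and 3, and 170 CPM in Gli2/3 cKO 3. The Hand2 cKO libraries all lay above the WT libraries, the nearest by 200 against 197 CPM. The log2 difference was 0.50 ± 0.23 (SE, interval -0.06 to 1.06), and edgeR gave an adjusted p of 0.723. CPM ranges that do not overlap were found for 3 of the 7 genes, Hand1, Hand2 and Twist1, and for 31% of all genes tested. Scaled for transcript length as well as depth (TPM), the Twist1 ranges overlapped, at 183 to 254 in WT and 246 to 281 in Hand2 cKO.

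Twist2, its near copy with a role in dermal and connective tissue precursors, had 54.2 and 47.6 CPM in the WT libraries, 47.9, 68.9 and 42.2 CPM in Hand2 cKO, with 39.4 CPM in Gli2/3 cKO. Its WT values lay inside the Hand2 cKO range. The log2 difference in Hand2 cKO was 0.06 (interval -0.52 to 0.63), so a difference inside that interval could not be told from none. Its direction turned to -0.15 once the trend on transcript length was removed.

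The E-protein genes showed no difference that passed the test in either tool. Tcf3, the source of E12 and E47, had 494 and 455 CPM in the WT libraries, 481, 544 and 475 CPM in Hand2 cKO, with 462 CPM in Gli2/3 cKO. Its log2 difference in Hand2 cKO was 0.08 (interval -0.31 to 0.46), the narrowest interval of the 7 genes. Tcf4 had 213 and 139 CPM in the WT libraries, 196, 149 and 206 CPM in Hand2 cKO, with 209 CPM in Gli2/3 cKO. The WT libraries of Tcf4 lay farther apart than the group means, and the log2 difference was 0.06 (interval -0.54 to 0.66), or 0.17 without Hand2 cKO 2. Tcf12 had 434 and 349 CPM in the WT libraries, 392, 244 and 405 CPM in Hand2 cKO, with 363 CPM in Gli2/3 cKO. The low Tcf12 value was that of Hand2 cKO 2, and the log2 difference of -0.17 (interval -0.81 to 0.47) became 0.01 without that library. For these 3 genes and Twist1 and Twist2, edgeR's adjusted p lay between 0.723 and 0.942.

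The second comparison asks about the deletion of both Gli genes. Gli2 had 58.3 CPM and Gli3 80.2 CPM in the Gli2/3 cKO library, below the lowest of the other 5 libraries (80.2 and 114 CPM), and the files do not show whether those reads come from the deleted parts. Gli2/3 cKO is a single library, so its tests borrow the spread of the other groups, and it shares the WT libraries with the first comparison. Hand1 differed by -1.34 ± 0.43 (SE, log2, interval -2.38 to -0.31), a 2.54-fold lower level, with an edgeR adjusted p of 0.931 and a DESeq2 adjusted p of 0.205. The log2 difference of Hand1 was -0.86 without WT 4, the WT library with the higher Hand1 level, and -1.71 without WT 3. Hand2 differed by -0.41 (interval -1.39 to 0.57), Twist2 by -0.37 (interval -1.15 to 0.41), Tcf4 by 0.24 (interval -0.55 to 1.04), Tcf12 by -0.11, Twist1 by -0.05 and Tcf3 by -0.04. By edgeR 0 of the 7 genes were called against 0.0114% of all genes, by DESeq2 0 of 7 against 0.732%, and at an unadjusted p below 0.05 1 of 7, Hand1, against 4.59%. The median log2 difference was -0.11 for the 7 genes and 0.0012 for all genes.

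The mutants were then set against each other, which tests the difference between their effects. For Hand2 that difference includes its own deletion, so the counts below that include Hand2 are partly fixed by the genotype. Gli2/3 cKO lay above Hand2 cKO by 2.99 ± 0.34 (SE, log2) for Hand2 and by 2.76 ± 0.35 for Hand1, with edgeR adjusted p of 0.115 and 0.151. DESeq2 called both, with adjusted p = 3.00e-10 for Hand2 and 5.76e-08 for Hand1. Twist1 was 0.55 lower on the log2 scale (interval of the difference -1.27 to 0.18) and Twist2 0.43 lower, and neither was called. The log2 difference was -0.11 for Tcf3, 0.18 for Tcf4 and 0.06 for Tcf12. By edgeR 0 of 7 genes were called against 0.0343% of all genes, by DESeq2 2 of 7 against 0.818%, and 2 of 7 were at an unadjusted p below 0.05 against 5.48%.

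**Figure D2:**
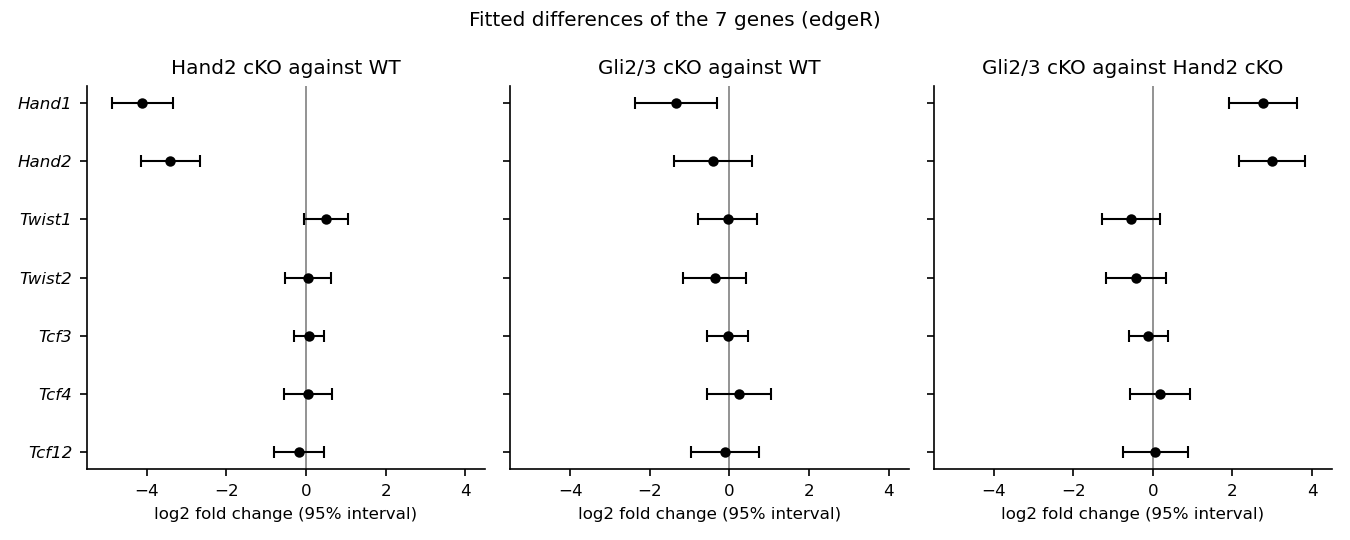
Log2 fold change of each gene in the 3 comparisons, with the 95% interval from the edgeR fit over all 6 libraries. The intervals of Hand1 and Hand2 exclude 0 in Hand2 cKO against WT and in Gli2/3 cKO against Hand2 cKO, that of Hand1 also in Gli2/3 cKO against WT, and all others include 0.

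Levels of different genes were compared in TPM, that is, per annotated transcript length. In WT the order of mean TPM was Tcf3 (379 ± 40.1, SD, n = 2), Twist1 (219 ± 50.6), Tcf12 (214 ± 32.7), Hand2 (164 ± 11.8), Hand1 (97.8 ± 37.9), Tcf4 (84.5 ± 22.3) and Twist2 (77.2 ± 11.2). The WT ranges of Twist1 and Tcf12 overlapped, as did those of Hand1 and Tcf4 and of Tcf4 and Twist2, so these neighbours did not differ beyond their spread. In WT all 7 genes stood above at least 85.6% of the genes tested. In Hand2 cKO the first 3 places were the same, with Tcf3 at 332 ± 42.3 TPM (SD, n = 3), Twist1 at 261 ± 18.1 and Tcf12 at 156 ± 69.4, while Hand2 at 13.0 ± 2.06 and Hand1 at 4.94 ± 1.70 TPM came last. In the Gli2/3 cKO library Hand2 held the fourth place at 122 TPM, and Hand1 was last at 37.2 TPM.

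The pool of tissue-restricted partners, Hand1, Hand2, Twist1 and Twist2 summed in TPM, was 567 and 550 in WT, 366, 345 and 328 in Hand2 cKO, with 426 in Gli2/3 cKO. All mutant libraries lay below WT. Hand genes made up 40.1 and 54.1% of this pool in WT, 4.68, 5.20 and 5.72% in Hand2 cKO, with 37.4% in Gli2/3 cKO. Twist1 alone made up 44.9 and 33.3% in WT, 76.7, 74.2 and 75.1% in Hand2 cKO, with 48.8% in Gli2/3 cKO. Twist1 transcripts were thus the most abundant of the 4 in every library but not by the same margin: the ratio of Twist1 to Hand2 TPM was 1.63 and 1.06 in WT, 26.0, 17.2 and 18.5 in Hand2 cKO, with 1.70 in Gli2/3 cKO. The summed Twist TPM, 339 and 252 in WT, overlapped with the 349, 327 and 309 of Hand2 cKO. Because the pool contains Hand2, the share of Twist1 also rises when Hand2 falls.

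Within the Hand pair, the ratio of Hand1 to Hand2 TPM was 0.455 and 0.721 in WT, 0.583, 0.203 and 0.413 in Hand2 cKO, with 0.304 in Gli2/3 cKO. The WT values lay within or above the Hand2 cKO range, and the Gli2/3 cKO value lay below both WT values. Within the Twist pair, Twist1 to Twist2 was 2.99 and 2.64 in WT, 4.13, 3.59 and 3.91 in Hand2 cKO, with 3.52 in Gli2/3 cKO, with no overlap between WT and Hand2 cKO. The exact permutation test (two-sided, 3 against 2 libraries) cannot go below 0.2. That smallest p was reached by the Hand and Twist sum, the Hand sum, the shares of Hand, Hand1, Hand2, Twist1 and Twist2, and the ratios of Twist1 to Twist2 and to Hand2. Over the 19 quantities tested their adjusted p was 0.422.

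The E-protein pool summed to 744 and 610 TPM in WT, 594, 393 and 666 in Hand2 cKO, with 635 in Gli2/3 cKO. The WT and Hand2 cKO ranges overlapped, with Hand2 cKO 1 and 2 below both WT libraries and Hand2 cKO 2 the lowest. E-protein TPM was 1.31 and 1.11 times the Hand and Twist pool in WT, 1.62, 1.14 and 2.03 times in Hand2 cKO, with 1.49 times in Gli2/3 cKO (exact permutation p = 0.4 for Hand2 cKO against WT, two-sided). This mean log2 difference of 0.36 was 0.65 on CPM sums with no length scaling (exact permutation p = 0.2, the smallest possible) and 0.59 without Hand2 cKO 2. The log2 difference of the E-protein sum itself was -0.33 in TPM, -0.013 on CPM sums and -0.10 without Hand2 cKO 2. Tcf3 gave 54.7 and 57.4% of the E-protein pool in WT, 58.2, 72.3 and 54.9% in Hand2 cKO, with 58.8% in Gli2/3 cKO. The Tcf3 share was highest, and the shares of Tcf4 (7.84%) and Tcf12 (19.8%) lowest, in Hand2 cKO 2.

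**Figure D3:**
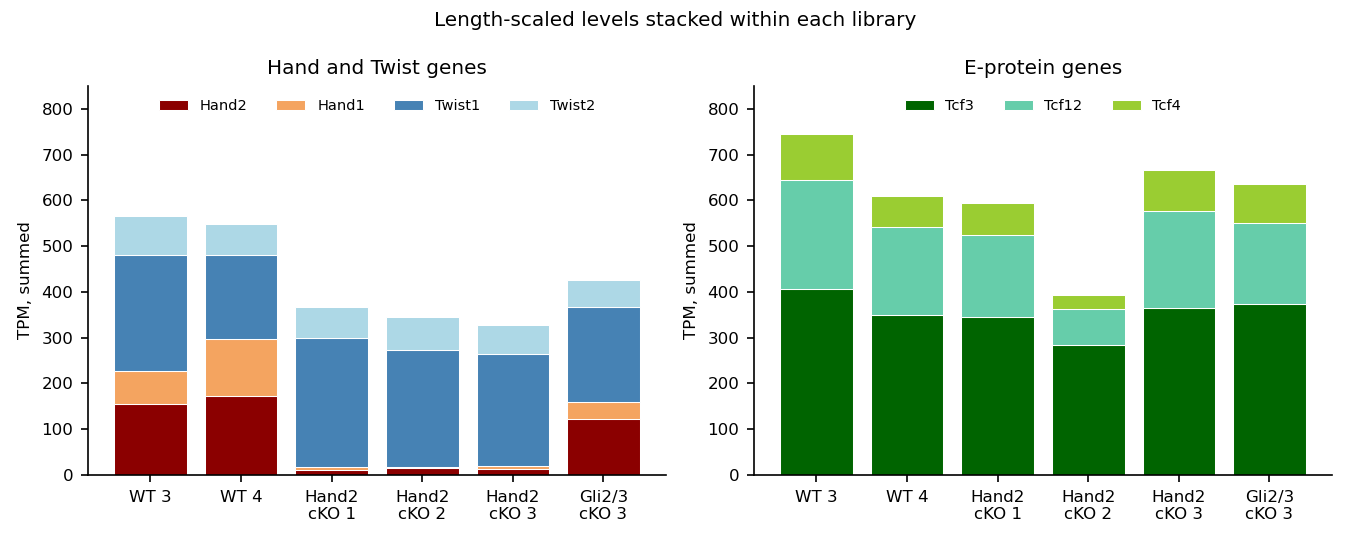
TPM of the Hand and Twist genes (left) and of the E-protein genes (right), stacked for each of the 6 libraries on axes from 0. The Hand segments nearly vanish in Hand2 cKO 1, 2 and 3, the Twist segments stay, and the E-protein stack is lowest at 393 TPM in Hand2 cKO 2.

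Single transcripts were tested next. Of the 104 transcripts of the 7 genes, 55 passed the filter on low counts. By edgeR none was called in either comparison, and none of all 58855 transcripts was (0% called). At an unadjusted p below 0.05, 5 were lower and 5 higher in Hand2 cKO, where 2.99% of all transcripts met that level, and 1 was lower and 2 higher in Gli2/3 cKO, against 2.71%. DESeq2 called 6 of them in Hand2 cKO against 0.985% of all, namely Hand1-201 and Hand2-201 lower and Tcf3-206, Tcf3-208, Tcf4-203 and Tcf12-220 higher, and 1 in Gli2/3 cKO, Tcf3-208 higher, against 0.709%. Hand2 has only the transcript Hand2-201, so its call in Hand2 cKO follows from the deletion. Hand1-201 held 91.3 and 98.6% of Hand1 in WT, 86.3, 42.2 and 100% in Hand2 cKO, with 89.7% in Gli2/3 cKO. The 42.2% stands in Hand2 cKO 2, at the lowest Hand1 level of all libraries, where the shorter Hand1-203 took 57.8%.

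Tcf3 is spliced to 1 of 2 alternative exons that carry the basic region and give the E12 or the E47 protein, and both exons are shown because they are what separates these forms in the counts. They were read from GENCODE M21 (mm10), 5′ to 3′ on the coding strand, each being exon 18 of 19 in its transcript, on the minus strand at chr10:80412828-80413061 for E12 (Tcf3-201, 78 whole codons) and chr10:80410399-80410623 for E47 (Tcf3-202, 75 codons). Capitals mark codons whose residue differs between the aligned forms, and 55 codons give the same residue.
E12: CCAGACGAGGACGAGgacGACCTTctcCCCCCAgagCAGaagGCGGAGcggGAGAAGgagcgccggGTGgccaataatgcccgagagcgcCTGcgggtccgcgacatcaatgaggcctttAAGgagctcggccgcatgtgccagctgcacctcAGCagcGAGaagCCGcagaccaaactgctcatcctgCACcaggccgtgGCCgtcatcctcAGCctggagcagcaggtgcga
E47: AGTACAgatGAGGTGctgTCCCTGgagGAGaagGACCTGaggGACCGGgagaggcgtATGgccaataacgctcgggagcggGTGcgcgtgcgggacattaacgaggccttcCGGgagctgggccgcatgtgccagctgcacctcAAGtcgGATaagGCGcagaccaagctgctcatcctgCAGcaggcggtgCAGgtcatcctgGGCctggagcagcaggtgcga
Transcripts with the E12 exon, 4 in number, held 34.2 and 32.5% of Tcf3 counts in WT. They held 37.4, 36.9 and 36.1% in Hand2 cKO, with 37.9% in Gli2/3 cKO. All mutant libraries lay above both WT libraries, also in Hand2 cKO 2, by a mean of 3.44 percentage points in Hand2 cKO. The exact permutation test gave p = 0.2 (two-sided, the smallest possible with 3 against 2), and 0.4 after adjustment over 8 shares. In TPM the difference was 4.08 percentage points. The 7 E47 transcripts held 57.6 to 63.5% of Tcf3 counts in the 6 libraries, and E47 was the larger form in each.

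Among single Tcf3 transcripts, the E47 transcript Tcf3-202 held 51.6 and 46.8% in WT, 43.3, 26.5 and 51.1% in Hand2 cKO, with 37.4% in Gli2/3 cKO. The shorter E47 transcript Tcf3-205 held 1.89 and 9.38% in WT, 8.38, 31.0 and 2.79% in Hand2 cKO, with 14.9% in Gli2/3 cKO. These shares traded places mainly in Hand2 cKO 2, while the sum of E47 forms moved little. The E12 transcripts Tcf3-201 and Tcf3-210 held 19.4 to 29.0% and 3.48 to 13.1%.

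Long E proteins begin with activation domain 1 (AD1), which binds coactivators such as p300, and shorter forms from inner promoters lack it. Transcripts of Tcf4 with both AD1 and the bHLH stretch, 8 of 62, held 79.9 and 75.5% of Tcf4 counts in WT, 86.8, 94.7 and 79.9% in Hand2 cKO, with 81.3% in Gli2/3 cKO. The highest share was that of Hand2 cKO 2, and Hand2 cKO 3 was level with WT 3. The exact permutation p was 0.2 (two-sided, the smallest possible), and 0.4 on TPM shares, where the groups overlapped. The mean difference of 9.45 percentage points was 5.68 without Hand2 cKO 2. Tcf4-202 was the main transcript, at 62.9 and 54.9% in WT, 70.2, 74.7 and 65.7% in Hand2 cKO, with 67.9% in Gli2/3 cKO, followed by Tcf4-207 at 9.77 to 19.7%.

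Tcf12 transcripts with AD1, 5 of 21, held 70.0 and 75.3% in WT, 59.3, 26.7 and 70.3% in Hand2 cKO, with 63.8% in Gli2/3 cKO. The mean difference of -20.5 percentage points between Hand2 cKO and WT was -7.82 without Hand2 cKO 2. Tcf12-220, annotated as a target of nonsense-mediated decay and without the bHLH stretch, held 0.299 and 0.674% in WT, 12.9, 50.6 and 3.48% in Hand2 cKO, with 1.98% in Gli2/3 cKO. The main coding transcript Tcf12-221 held 45.7 and 57.7% in WT, 48.8, 17.0 and 49.3% in Hand2 cKO, with 46.6% in Gli2/3 cKO. Hand2 cKO 2 stood farthest from the others for both, and the part of its length trend in these values was not tested. Tcf12-220 has 4167 bases and Tcf12-221 has 3986 bases, and these lengths alone are no test of that part. The form with the bHLH stretch but without AD1, 2 transcripts, held 17.8 to 23.5% in the 6 libraries. Its larger transcript Tcf12-207 held 11.5 to 22.6%, and Tcf12-201 held 0 to 17.6%. Without Hand2 cKO 2 the share of Tcf12-220 differed from WT by 7.68 percentage points, against 21.8 with it. Shares of overlapping transcripts are estimates split by the authors' program, and no share differed between groups in a way that 3 against 2 libraries could test at 0.05.

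**Figure D4:**
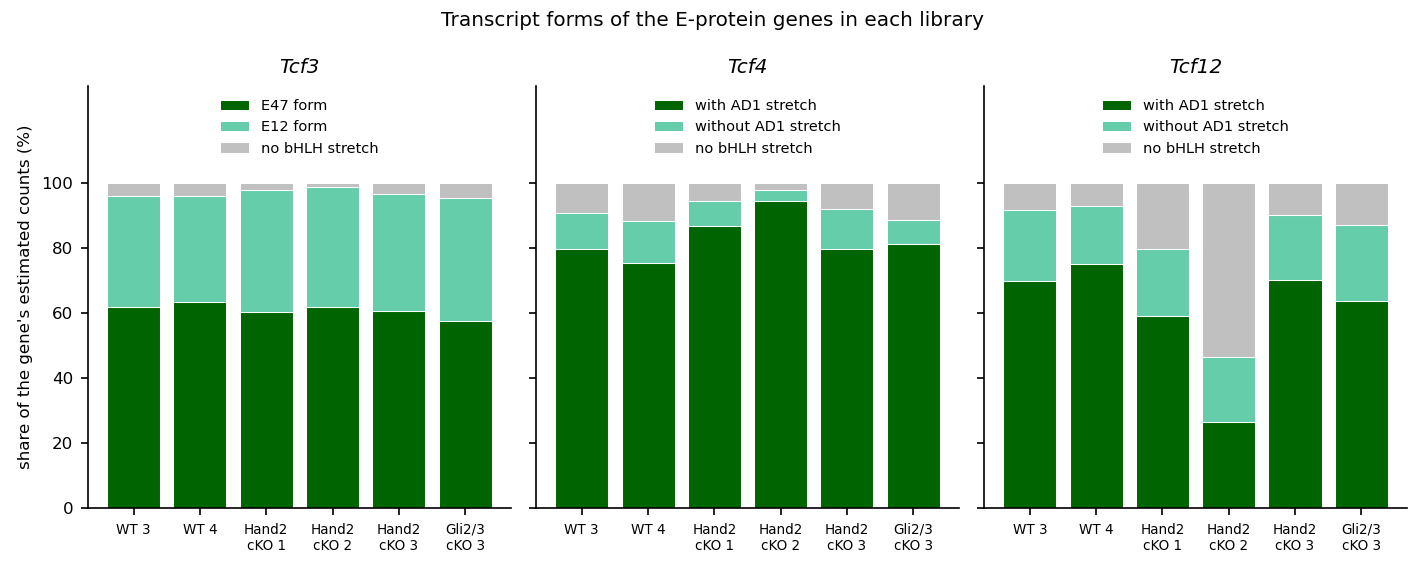
Share of the estimated counts of Tcf3, Tcf4 and Tcf12 held by each transcript form in the 6 libraries (stacked bars, percent). The E12 share of Tcf3 lies at 32.5 to 37.9% in all libraries, while Tcf12 transcripts without the bHLH stretch reach 53.5% in Hand2 cKO 2 and lie at 6.86 to 20.2% elsewhere.

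The Id genes, which hold E proteins off DNA, were measured alongside. Id1 had 75.2 and 111 CPM in the WT libraries, 84.5, 171 and 83.3 CPM in Hand2 cKO, with 88.5 CPM in Gli2/3 cKO. Id3 had 142 and 188 CPM in the WT libraries, 152, 308 and 160 CPM in Hand2 cKO, with 174 CPM in Gli2/3 cKO. Both were highest in Hand2 cKO 2 and next highest in WT 4, the libraries with the high erythroid sums, and the groups overlapped. Id2 ranged from 119 to 186 CPM and Id4 from 2.82 to 4.69 CPM. The log2 differences in Hand2 cKO against WT were 0.27 for Id1, 0.09 for Id2, 0.33 for Id3 and 0.06 for Id4, the edgeR adjusted p lay between 0.776 and 0.944, and neither edgeR nor DESeq2 called any of the 4 in any comparison. Summed in TPM, Id transcripts were 0.817 and 1.30 times the E-protein sum in WT, 1.05, 2.03 and 0.977 times in Hand2 cKO, with 1.07 times in Gli2/3 cKO.

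Other tissue-restricted bHLH genes that pair with E proteins, such as those of muscle and neurons, added little. Of 40 such genes 22 passed the filter, and their summed level, 61.9 to 74.9 TPM over all 40, was below that of Twist1 alone in every library. None was called by edgeR or DESeq2 in any comparison. In Hand2 cKO 1 of 22 was lower at an unadjusted p below 0.05, where 6.47% of all genes met that level, so the share was not above the background. It was the neuronal factor Nhlh2, with 1.87 and 2.34 CPM in the WT libraries, 1.08, 1.19 and 0.385 CPM in Hand2 cKO, with 1.38 CPM in Gli2/3 cKO. The median log2 difference of the 22 was 0.17. In Gli2/3 cKO the only gene at that level was Ascl2, for which 0 counts were seen in that library.

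Cofactors known to bind E proteins, 15 genes of which all were tested, had a median log2 difference of -0.14 in Hand2 cKO and -0.05 in Gli2/3 cKO, and neither tool called any. Runx1t1, a corepressor of the ETO family, had 56.01 and 44.9 CPM in the WT libraries, 29.2, 17.5 and 29.7 CPM in Hand2 cKO, with 35.3 CPM in Gli2/3 cKO. All mutant libraries lay below WT, and the log2 difference in Hand2 cKO was -0.99 ± 0.26 (SE, edgeR adjusted p = 0.663). The next genes by p were Cbfa2t2 (-0.42), Hdac2 (0.29) and Hdac1 (0.22), on the log2 scale.

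Of 14 genes that act upstream of Hand2 or Hand1 in the arch, all were tested and none was called in any comparison. Furin, the protease that matures endothelin precursors, had 72.6 and 71.5 CPM in the WT libraries, 57.1, 47.02 and 60.0 CPM in Hand2 cKO, with 51.6 CPM in Gli2/3 cKO. It was below WT in all mutant libraries, by -0.40 ± 0.16 (SE, log2) in Hand2 cKO with an edgeR adjusted p of 0.723. Dlx5, the homeobox factor between endothelin signalling and Hand2, had 120 and 75.7 CPM in the WT libraries, 127, 153 and 122 CPM in Hand2 cKO, with 131 CPM in Gli2/3 cKO. Dlx5 in each mutant library was above both WT libraries, with a log2 difference of 0.45 (interval -0.13 to 1.04) in Hand2 cKO, and the next genes by p were Plcb3 (-0.22) and Dlx6 (0.41). The endothelin receptor gene Ednra had 64.0 and 45.2 CPM in the WT libraries, 61.7, 40.4 and 56.8 CPM in Hand2 cKO, with 49.0 CPM in Gli2/3 cKO, with groups that overlap. The median log2 difference of the 14 genes was -0.07 in Hand2 cKO and -0.02 in Gli2/3 cKO.

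Of 17 mesenchyme genes tied to Twist1 or Hand function, all were tested, and edgeR called none in Hand2 cKO, while DESeq2 called 2 lower (1.04% of all genes were called) and, at an unadjusted p below 0.05 by edgeR, 2 were lower and 2 higher (6.47% of all genes). Gsc, the goosecoid homeobox gene of the distal arch, had 41.6 and 30.4 CPM in the WT libraries, 5.35, 5.73 and 3.35 CPM in Hand2 cKO, with 14.0 CPM in Gli2/3 cKO. Alx4, a homeobox gene of limb and craniofacial mesenchyme, had 218 and 230 CPM in the WT libraries, 98.4, 63.4 and 95.3 CPM in Hand2 cKO, with 179 CPM in Gli2/3 cKO. All Hand2 cKO libraries lay below both WT libraries for these 2 genes, and the Gli2/3 cKO library lay in between. The log2 differences in Hand2 cKO were -2.90 ± 0.28 for Gsc (SE, edgeR adjusted p = 0.0784) and -1.38 ± 0.22 for Alx4 (edgeR adjusted p = 0.233), and DESeq2 called both. Sox9, the cartilage regulator, and Snai2, a repressor of epithelial genes, were higher at an unadjusted p below 0.05, by 0.60 and 0.37. The median log2 difference of the list was 0.23 in Hand2 cKO and -0.12 in Gli2/3 cKO. There, 2 of 17 were lower at an unadjusted p below 0.05 against 4.59% of all genes, and neither tool called them. Runx2, the bone regulator whose protein Twist1 holds back, had 2.22 CPM against 8.16 and 5.13 in WT, a log2 difference of -1.59 (edgeR adjusted p = 0.853), and Gsc differed by -1.37 (edgeR adjusted p = 0.871). In Gli2/3 cKO against Hand2 cKO DESeq2 called the same 2 of 17, Runx2 lower (-2.01 on the log2 scale, DESeq2 adjusted p = 0.00393) and Gsc higher (1.53, DESeq2 adjusted p = 0.0212), against 0.818% of all genes, and edgeR called neither (adjusted p of 0.569 and 0.549).

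Of 6 listed genes near Hand1, Hand2 or Twist1 on the chromosome, 5 were in the files and 3 passed the filter, and neighbours of the other members were not analysed here. Near Hand1, Galnt10 had 45.8 and 49.7 CPM in the WT libraries, 42.2, 40.8 and 38.1 CPM in Hand2 cKO, with 33.5 CPM in Gli2/3 cKO, and Sap30l had 20.4 to 35.4 CPM. Galnt10 was lower in all mutant libraries, by -0.24 ± 0.13 (SE, log2) in Hand2 cKO and -0.51 ± 0.18 in Gli2/3 cKO, where Hand1 itself differed by -4.11 and -1.34. Near Twist1, Hdac9 had 10.5 to 15.4 CPM with a log2 difference of 0.0028, and Ferd3l was under the filter. Scrg1, near Hand2, had 0 counts in all 6 libraries, which allows at most 3 counts or 0.0567 to 0.133 CPM per library, with counting error only. Neither tool called any of the 3.

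The Hand genes are also made in heart and sympathetic precursors, and markers of those cells were read for each group. The 11 cardiac markers summed to 5.20 and 10.7 CPM in the WT libraries, 3.67 to 6.09 CPM in Hand2 cKO, with 4.48 CPM in Gli2/3 cKO. Myl2 was at 0 counts in both WT libraries, and none of the list was called. The cardiac sum, the erythroid sum and Hand1 were all higher in WT 4 than in WT 3, and the part of those markers in the Hand1 value was not tested. The 9 neuron markers summed to 32.7 to 42.0 CPM, Dbh being at 0 in all libraries. Of the same list, Th had 2.74 to 4.32 CPM and Isl1 16.8 to 26.5 CPM. The 0 of Dbh therefore does not show that sympathetic precursors were absent. Epithelium markers (10 genes) summed to 346 to 394 CPM, endothelium markers (10) to 266 to 326 CPM, muscle precursor markers (8) to 36.3 to 47.02 CPM and macrophage markers (8) to 24.4 to 31.7 CPM in WT and Hand2 cKO against 15.8 CPM in Gli2/3 cKO. The Schwann and glia precursor markers (6) summed to 18.8 to 33.0 CPM.

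The genes whose pattern over the 6 libraries was most like each factor were found by the root-mean-square (RMS) difference of centred log2 CPM among 11425 genes. The likeness is over libraries that share genotype, so it describes these samples only. For Hand1 they were Syt6 (RMS difference 0.27), a synaptotagmin, Dlg2 (0.47), a scaffold protein, and Dgkk (0.56), a diacylglycerol kinase. Syt6 had 19.4 and 31.0 CPM in the WT libraries, 1.31, 0.845 and 1.23 CPM in Hand2 cKO, with 12.9 CPM in Gli2/3 cKO. Like Hand1, it was higher in WT 4 than in WT 3 and intermediate in Gli2/3 cKO, which follows from its selection by likeness over these libraries. For Hand2 they were Dgkk (0.60), Gsc (0.63) and Syt6 (0.64). Dgkk had 29.9 and 44.3 CPM in the WT libraries, 4.88, 2.77 and 5.30 CPM in Hand2 cKO, with 40.0 CPM in Gli2/3 cKO. For Twist1 they were Ccdc166, Pgrmc1 and Hnrnpa0 (0.06 each), and for Twist2 Coro1a, Gja4 and Cryl1 (0.06 each). The Twist lists were not stable: without Hand2 cKO 2, 0 of the 3 genes stayed in either list, while 2 of 3 stayed for Hand1 and 2 of 3 for Hand2.

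**Figure D5:**
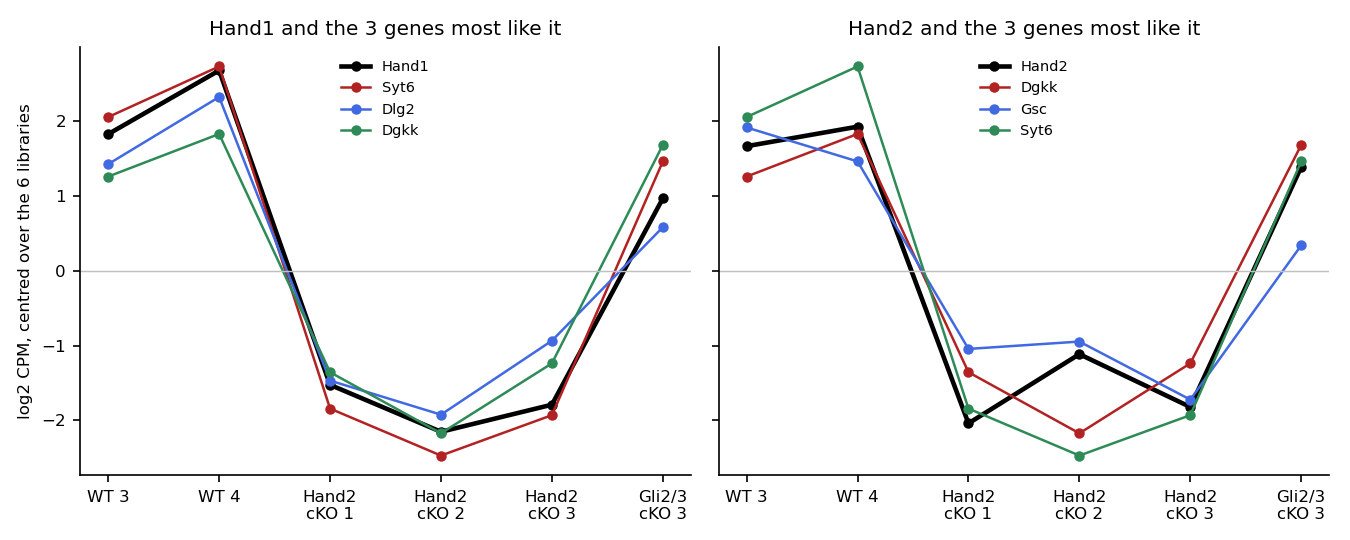
Log2 CPM centred over the 6 libraries for Hand1 (left) and Hand2 (right), each with the 3 genes nearest to it by RMS difference. Lines join libraries for reading only. Syt6 follows Hand1 with an RMS difference of 0.27, and all genes shown are low in the 3 Hand2 cKO libraries, as their selection by likeness implies.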

How the data were processed

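MNPs of mouse embryos at embryonic day 10.5 were profiled by bulk RNA-seq, and 6 of 10 labelled samples were used. Per the study's methods, the authors mapped read pairs to mm10, estimated transcript abundance with Strand NGS and ran DESeq2 inside it. Annotation and strand setting were not given in the sources used here. Labels and study differ on the sequencer. The deposited files hold expected counts, that is, read counts the authors' program estimated for each of 105129 transcripts. 47.7 to 56.8% of values were not whole (more than 0.01 from a whole number), where the design assumed whole counts. They were summed per gene symbol and rounded. Library totals were 21420197 to 53326697.

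All 6 libraries entered 1 quasi-likelihood fit of edgeR 4.0.16 (R 4.3.3) with genotype as the only term, TMM scaling and filterByExpr, which kept 17477 genes and left 3 residual degrees of freedom. Transcripts were fitted the same way (58855 kept). Adjusted p-values are Benjamini-Hochberg over all features tested, and a call needed an adjusted p below 0.05 and a fold above 1.5. DESeq2 1.42.0 was an alternative, beside other scaling, filters, priors, samples and removal of the length trend. TPM used GENCODE M21 transcript lengths, with 103723 transcripts matched. A transcript with no match (1406) took a substitute length. Single values were compared with exact permutation tests (scipy 1.17.1). Scripts were tested on simulated data. Libraries of the same group differed by more than counting noise (chi-square of 24.0 to 225 per degree of freedom over genes), which does not show that they came from separate embryos.

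All 7 genes are named in every comparison, with the 4 Id genes, called members of each gene list or, with none called, up to 4 with the smallest p (some lists are given as counts only), the 3 genes most like each Hand and Twist gene (mean log2 CPM of 1 or more, without numbered gene models, pseudogenes or ribosomal protein genes) and transcripts with at least 10% of a gene's counts in any library. Gli2, Gli3, Ednra, Scrg1, Ferd3l, Th, Isl1 and the markers at 0 were named after their values were seen. The members, lists and tests were chosen with earlier results of these data known. Some list genes were left out and are not reported here. Hand2os1, an antisense neighbour of Hand2, was not analysed here, and without strand its reads and those of Hand2 could not be told apart.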

Additional observations from a re-analysis of the deposited data

Results flagged for a closer look

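Hand1 and Hand2 were higher in Gli2/3 cKO than in Hand2 cKO. The contrast of Gli2/3 cKO with Hand2 cKO was 2.76 on the log2 scale for Hand1 and 2.99 for Hand2, which DESeq2 called and edgeR did not (adjusted p = 0.151 and 0.115). The Gli2/3 cKO arm is 1 library, and the Hand2 difference includes the deletion of Hand2 itself.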

How the results depend on the processing

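Hand1 and Hand2 were lower in Hand2 cKO than in WT under every alternative, and only their side of the threshold moved. DESeq2 called both (-4.11 and -3.40 on the log2 scale), as did edgeR with no filter on low counts (-4.10 and -3.40, adjusted p = 9.52e-04 and 0.00252) and with the length trend removed (-4.16 and -3.45, adjusted p = 0.0192 for both), so 2 of the 7 genes were called under each of these. Leaving out 1 library gave -4.47 to -3.62 for Hand1, called without WT 3 or without Hand2 cKO 2 or 3, and -3.74 to -3.23 for Hand2, called without Hand2 cKO 2 or 3, that is, 0 to 2 called genes of the 7. Over all genes, 2 calls became 1 with upper-quartile scaling, 182 by DESeq2, 45 with no filter, 57 with the length trend removed and 1 to 39 without 1 library (1 if WT 4 or Hand2 cKO 1 was left out, 22 for WT 3, 39 for Hand2 cKO 2 and 25 for Hand2 cKO 3).

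In Gli2/3 cKO against WT, 2 calls over all genes became 128 by DESeq2, 21 with no filter, 0 with a robust prior, 14 with the length trend removed, 57 with only these groups fitted and 0 to 14 without 1 library (0 for WT 4, 1 for Hand2 cKO 1, 9 for Hand2 cKO 3, 12 for WT 3 and 14 for Hand2 cKO 2), and none of the 7 genes was called under any of them. In Gli2/3 cKO against Hand2 cKO, 6 calls became 143 by DESeq2, 39 with no filter, 41 with the length trend removed, 20 with only these groups fitted and 2 to 23 without 1 library (2 for Hand2 cKO 1, 18 for WT 4, 20 for WT 3 and 23 for Hand2 cKO 2). There, Hand1 was called by DESeq2 (2.76) and with no filter (2.76, adjusted p = 0.0108 by edgeR), and Hand2 by DESeq2 (2.98), with no filter (2.99, edgeR adjusted p = 0.00525), with the length trend removed (3.05, edgeR adjusted p = 0.0262) and without Hand2 cKO 2. The called genes of the 7 were 2 by DESeq2, 2 with no filter, 1 with the length trend removed and 0 to 1 without 1 library, over which Hand2 ranged from 2.81 to 3.31 and Hand1 from 2.61 to 2.92. Transcript calls went from 0 to 580 (6 from the 7 genes) in Hand2 cKO and 417 (1 from the 7 genes) in Gli2/3 cKO by DESeq2.

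Among gene differences, directions turned only where the interval includes 0. With the length trend removed, Twist2 was -0.15 in Hand2 cKO against WT, and Tcf4 and Tcf12 were -0.016 and -0.021 in Gli2/3 cKO against Hand2 cKO. Without 1 library, the Hand2 cKO log2 difference ranged from -0.19 to 0.20 for Twist2, -0.0026 to 0.14 for Tcf3, -0.21 to 0.40 for Tcf4 and -0.32 to 0.012 for Tcf12. That of Gli2/3 cKO against WT ranged from -0.22 to 0.15 for Twist1, -0.10 to 0.024 for Tcf3, -0.032 to 0.58 for Tcf4 and -0.26 to 0.057 for Tcf12, and that of Tcf12 between the mutants from -0.13 to 0.19. The Tcf3-205 share difference ranged from -0.054 to 14.1 percentage points. Causes were not tested. No paired analysis was possible because the labels give replicate numbers only and name no pairs of libraries. With 3 against 2 libraries and 3 residual degrees of freedom, differences of the size seen for Twist1 could not be told from the spread.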
